A study of Solanum lycopersicum with 31 samples.

Results

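The gene LOC101258610, annotated as a dnaJ protein homolog, was close to absent from 9 of 31 tomato leaf libraries and abundant in the other 22. The 9 libraries were chosen by a single value, a summed count of LOC101258610 under 1000, and are called the low libraries here. The other 22 are called the rest. Because this gene chose the libraries, its own values are a description and carry no test. Each other gene is another measure of the same libraries and was compared between the 9 and the 22 with the group taken into account.

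All libraries came from leaves of wild type tomato of the cultivar Moneymaker, grown in a chamber under ceramic metal halide and incandescent lamps. An organic solar cell filter or a spectrally neutral control was placed over the plants, and poly(A) RNA was sequenced on a DNBSEQ instrument with all 31 libraries in 1 pool. The filter was either the control (C) or a blend, namely PTB7-Th:IEICO-4F (PI), FTAZ:PCBM (FP) or FTAZ:IT-M (FI). Each was used in an experiment with controlled photon flux density (PC) and in one with controlled height (HC). This gave 8 groups of 4 libraries, except PI_HC with 3. The series' design text speaks of individual plants, so a p-value measures the spread between these plants.

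J-domain proteins, also called HSP40 proteins, are co-chaperones. Their J domain binds an HSP70 chaperone and stimulates its ATPase, which lets HSP70 hold on to an unfolded protein. Plants have many of them, in the cytosol, the organelles and the endoplasmic reticulum, and together with HSP70, HSP90 and the small heat shock proteins they keep proteins folded during growth and heat. The annotation of the files gives LOC101258610 1 transcript of 7 exons on the minus strand of chromosome 11, at chr11:1149609-1153163 of build SL3.0, with 1606 exon bases.

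In the PC experiment, LOC101258610 had 9 counts in C_PC 1, 16 in C_PC 2, 1 in C_PC 4, 7 in PI_PC 1 and 33 in PI_PC 2. In the HC experiment it had 1 count in PI_HC 4, 53 in FI_HC 1, 66 in FI_HC 4 and 2 in FP_HC 3. The rest ran from 6133 counts in FI_PC 1 through a median of 12460.5 to 15978 in FP_PC 1. No library lay between: the highest value under the threshold was 66 and the lowest above it was 6133. In CPM, counts scaled to a common library size and composition, the low libraries held 0.0596 to 4.27 with a mean of 1.38 ± 1.57 CPM (SD, n = 9). The rest held 406 to 1079 CPM with a mean of 814 ± 155 CPM (SD, n = 22). The lowest of the rest was 95 times the highest of the low libraries. Over the pooled libraries the level was 1.40 CPM (exact 95% Poisson interval 1.20 to 1.61, counting error only) against 814 CPM, a ratio of 584. By mean counts the gene ranked 150 among all genes in the rest and 13350 in the low libraries. In a bulk leaf sample, fewer cells that express a gene and less of its RNA per cell cannot be told apart.

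**Figure D1:**
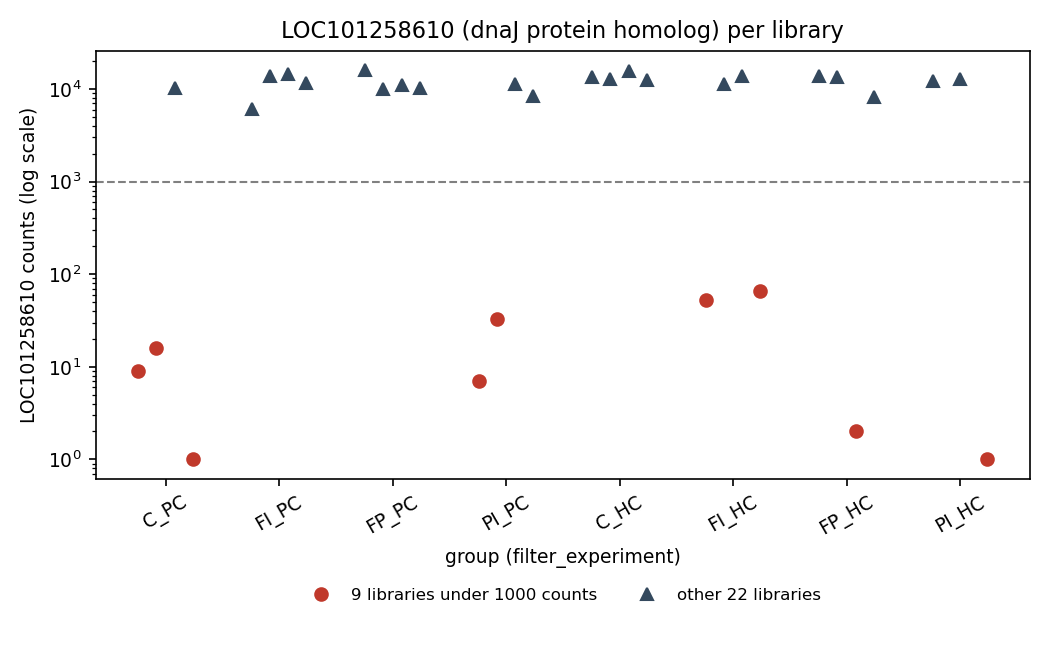
Counts of LOC101258610 in each of the 31 libraries on a log scale, by group, with red circles for the low libraries, dark triangles for the rest and a dashed line at 1000 counts. The low libraries sit at 66 counts or fewer and the rest at 6133 or more, and both kinds occur in 5 of the 8 groups.

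The low libraries were spread over both experiments and all 4 filters. They made up 3 of 4 libraries in C_PC, 2 of 4 in PI_PC, 2 of 4 in FI_HC, 1 of 3 in PI_HC and 1 of 4 in FP_HC. FI_PC, FP_PC and C_HC held 0. By experiment they were 5 of 16 PC libraries and 4 of 15 HC libraries, and by filter 3 of 8 under C, 2 of 8 under FI, 1 of 8 under FP and 3 of 7 under PI. The 5 mixed groups held 9 low libraries and 10 of the rest, and the comparison rests on these 19.

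Some libraries were in doubt before any comparison. For C_PC 4, PI_PC 4 and FP_PC 4 the label and the identifier conflict, since each identifier has the block code of a different group. Of these, the library labelled C_PC 4 is a low library. On the first principal component, with 28.5% of the variance, C_PC 4, PI_PC 2 and PI_PC 3 stood apart, and all but PI_PC 3 of these are low libraries. The main counts, the genes called with all libraries and some of the lists are therefore also given without these libraries. Library totals ran from 13723119 to 15083238 counts in the low libraries and from 13994536 to 15214288 in the rest. The group-centred mean of low libraries minus rest was -269209 counts, and the test did not pass 0.05 (exact permutation test within groups, two-sided, p = 0.0897, smallest p possible 0.000579). The leaf mesophyll markers, 34 genes with 0 of them at 0 in every library, summed to 26008 to 92391 CPM in the low libraries and 25573 to 102918 CPM in the rest. Of the other marker lists, the phloem list summed to 415 to 678 against 380 to 705 CPM over 17 genes, with 2 genes at 0 in every library. The glandular trichome list summed to 22.8 to 49.2 against 20.7 to 49.9 CPM over 15 genes, with 1 at 0. The root list summed to 76.0 to 320 against 54.2 to 270 CPM over 10 genes, with 1 at 0, and the flower and pollen list to 827 to 987 against 819 to 996 CPM over 21 genes, with 6 at 0. The ranges of low libraries and rest overlapped in each list. With the group taken into account the median log2 fold change of the tested markers was -0.38 for leaf mesophyll, -0.14 for phloem, -0.02 for glandular trichome, 0.30 for root (3 tested genes) and -0.00157 for flower and pollen. In these lists 0 genes passed in edgeR.

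The loss of counts covered every measured exon of LOC101258610. Exon 1, the first in the direction of transcription, had 1 count in all 31 libraries together. In the rest, exon 2 had 404 to 1064 counts, exon 5 had 1000 to 2964 and exon 7, the last, had 2341 to 5402. In the low libraries the same exons reached at most 6, 8 and 32 counts. The few counts that remained were, once pooled, spread over exons 2 to 7. Most of them came from FI_HC 4 (66), FI_HC 1 (53) and PI_PC 2 (33), while C_PC 4 and PI_HC 4 had 1 count each. Exon 6 held 28.2% of the 188 pooled low counts and 26.8% of the 264485 pooled counts of the rest, and exon 7 held 36.7% and 35.1%. Exon 3 held 5.32% and 8.32%, and exon 4 held 9.57% and 6.26%, from 10 and 18 pooled low counts. Sequence differences between plants and their effect on read mapping were not tested.

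**Figure D2:**
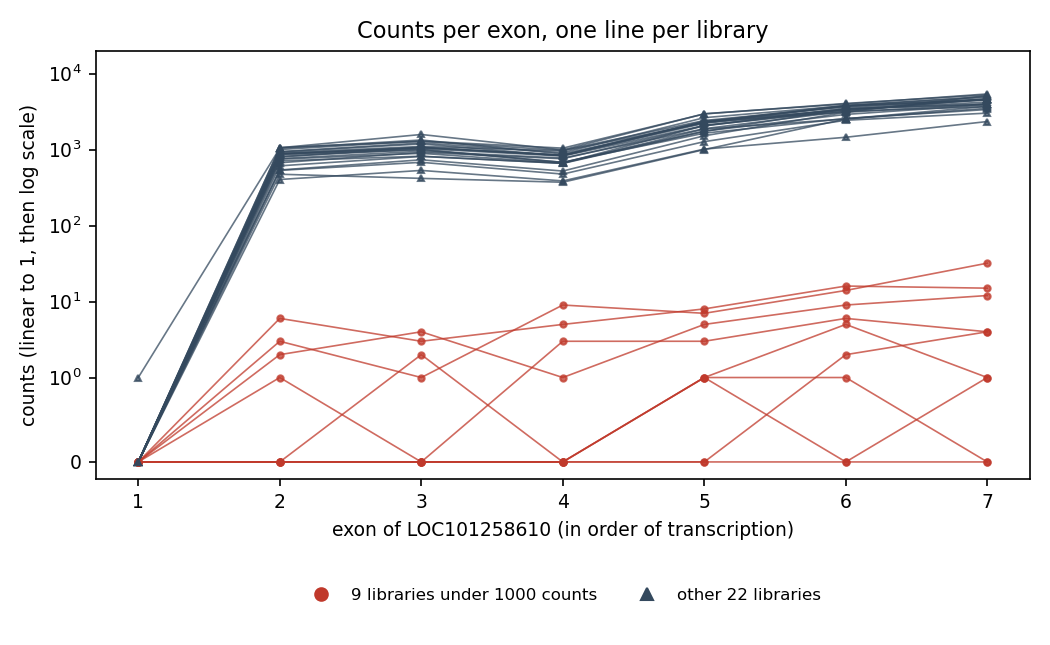
Counts of each exon of LOC101258610, in order of transcription, with a line for each library (red circles for low libraries, dark triangles for the rest) on an axis that is linear up to 1 and logarithmic above. From exon 2 to exon 7 every low library lies at 32 counts or fewer and every library of the rest at 372 or more.

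Beyond this gene, few genes passed the adjusted threshold between low libraries and rest. Genes that did not pass are not thereby shown to be equal. Of 16197 other genes tested, 2 passed an adjusted p of 0.05 (0.0123%; edgeR quasi-likelihood test with Benjamini-Hochberg adjustment), 1 higher (0.00617%) and 1 lower (0.00617%) in the low libraries. At an unadjusted p of 0.05 there were 1667 genes (10.3%), of which 712 were higher (4.4%) and 955 lower (5.9%). The values of the 9 and the 22 did not overlap in 0 of these genes (0%). The median log2 fold change over all tested genes was -0.000925, and 285 genes (1.76%) had a log2 fold change of at least 1 in either direction. DESeq2 called 20 genes. Leaving out the 3 libraries apart on the first component gave 9 genes of 16327 (0.0551%), leaving out the 3 with conflicting identifiers gave 2 of 16099 (0.0124%), and leaving out both kinds gave 1 of 16880 (0.00592%), LOC101245348. The shares at an unadjusted p under 0.05 were then 13.9%, 6.78% and 9.8%. Without PI_PC 3 alone 8 of 16140 genes passed (0.0496%). A fit of the 5 mixed groups alone gave 2 of 15947 (0.0125%), with 8.07% at an unadjusted p under 0.05.

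The gene that fell was LOC101247452, annotated as flavonoid 3'-monooxygenase-like and located at chr8:63037787-63039879 on the plus strand. Flavonoid 3'-monooxygenases are cytochrome P450 enzymes that add a hydroxyl group to the B ring of flavonoids. It had 0 counts in C_PC 1, C_PC 4, FI_HC 1 and FP_HC 3, 1 count in C_PC 2, PI_PC 2 and FI_HC 4, 3 in PI_PC 1 and 4 in PI_HC 4. The rest ran from 4 counts in FP_HC 4 to 100 in PI_PC 3. So 8 of the 9 low libraries lay under every library of the rest, and 1 library of the rest fell inside the low range. The low libraries had 0 to 0.287 CPM (median 0.0597) and the rest 0.276 to 5.84 CPM (median 1.32). Pooled, 10 counts stood against 515, a ratio of 21.4. Its log2 fold change was -4.19 (standard error 0.613, 95% interval -5.45 to -2.93, edgeR adjusted p = 0.00233), and it was lower in the low libraries of 5 of 5 mixed groups. It passed in 31 of 31 fits that left out 1 library, with edgeR adjusted p values from 0.000811 to 0.014. Without both kinds of doubted library its edgeR adjusted p was 0.0517, with a log2 fold change of -3.77. Over the alternative fits that use both experiments and keep the gene its adjusted p ranged from 9.22e-08 to 0.0517, and a filter of 10 counts in every library removed it.

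The gene that rose was LOC101245348, an uncharacterized gene at chr4:5920478-5923102 on the plus strand. It had 14 counts in C_PC 1, 39 in C_PC 2, 31 in C_PC 4, 1 in PI_PC 1 and 54 in PI_PC 2. In HC it had 25 counts in PI_HC 4, 67 in FI_HC 1, 52 in FI_HC 4 and 18 in FP_HC 3. In the rest it stood at 0 to 4 counts, apart from 14 counts in FI_HC 2. PI_PC 1 was thus the low library without a raised value, and FI_HC 2 the library of the rest with one. The low libraries had 0.0671 to 4.48 CPM (median 1.85) and the rest 0 to 0.986 CPM (median 0.0699). Pooled, 301 counts stood against 39, a ratio of 18.6 once scaled to depth. Its log2 fold change was 4.01 (standard error 0.611, 95% interval 2.75 to 5.26, edgeR adjusted p = 0.00317), and it was higher in the low libraries of 5 of 5 mixed groups. It passed in 31 of 31 fits that left out 1 library, with edgeR adjusted p values from 0.000288 to 0.035. In a fit of the 5 mixed groups alone its edgeR adjusted p was 0.0812. Over the alternative fits that use both experiments and keep the gene its adjusted p ranged from 3.35e-06 to 0.0812, and the filter of 10 counts in every library removed it too.

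**Figure D3:**
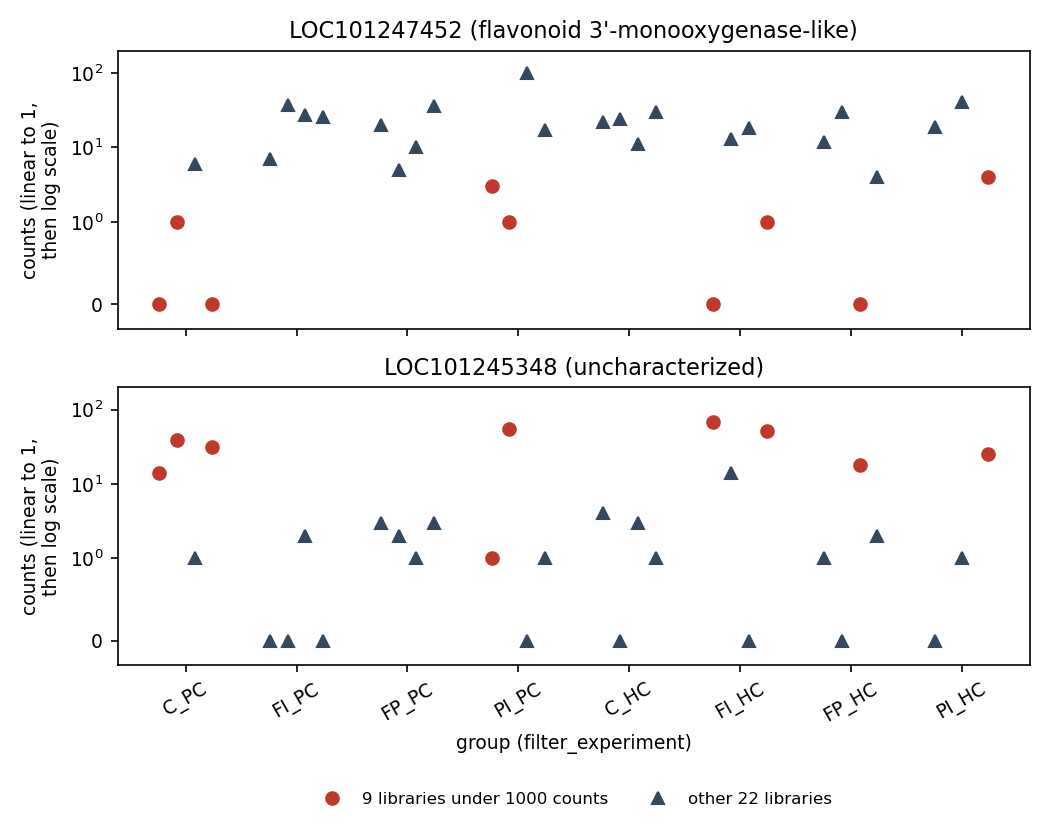
Counts of LOC101247452 (top) and LOC101245348 (bottom) in each library, by group, with red circles for low libraries and dark triangles for the rest, on an axis that is linear up to 1 and logarithmic above. The low libraries have 0 to 4 counts of LOC101247452, and 8 of 9 have 14 or more counts of LOC101245348.

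Both genes were low in abundance, with a mean under the log2 CPM of 1 that the rule for naming changed genes asked for. They are named because they were called and because they led the correlation with LOC101258610. Over 31 libraries, whose LOC101258610 values form 2 separate clusters, Pearson's r with that gene was 0.772 for LOC101247452 and -0.791 for LOC101245348, as a description of the same split. The next most alike in the same direction were LOC101245471, a vesicle-associated membrane protein gene (r = 0.666), and LOC101254934, which has no description in the files (r = 0.647). The next most opposed were LOC101251507 (r = -0.759) and LOC101253568 (r = -0.757), both without a description. LOC101253568 had 9.29 to 21.4 CPM (median 13.9) in the low libraries and 3.10 to 13.1 CPM (median 5.51) in the rest, with a log2 fold change of 1.04 (95% interval 0.60 to 1.47, edgeR adjusted p = 0.0994). LOC101251507 had 15.4 to 43.8 CPM (median 21.0) against 9.17 to 18.6 CPM (median 12.5), with a log2 fold change of 0.85 (95% interval 0.49 to 1.21, edgeR adjusted p = 0.107). Both were higher in the low libraries of 5 of 5 mixed groups, and their ranges overlapped.

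Other genes came near the threshold, or passed it in another fit, and were singled out after their values were seen. LOC101243813, annotated as a polyneuridine-aldehyde esterase, had 0 to 1.41 CPM in the low libraries and 0 to 5.12 CPM in the rest. Its log2 fold change was -3.24 (95% interval -4.51 to -1.97, edgeR adjusted p = 0.072), and it was lower in 5 of 5 mixed groups. LOC101251883, thioredoxin H2-like and so related to small disulfide reductases, had a log2 fold change of -1.12 (95% interval -1.57 to -0.67, edgeR adjusted p = 0.072), and was lower in 4 of 5 mixed groups and higher in 1. LOC101258501, annotated as protein JINGUBANG, had 72.1 to 163 CPM in the low libraries and 53.9 to 98.7 CPM in the rest, a log2 fold change of 0.51 (95% interval 0.30 to 0.73, edgeR adjusted p = 0.0994). Without the 3 libraries apart on the first component these 3 genes passed, with edgeR adjusted p values of 0.00492, 0.0326 and 0.025. They did not pass without the libraries with conflicting identifiers (edgeR adjusted p = 0.263, 0.263 and 0.0689). Nor did they pass without both kinds of doubted library (edgeR adjusted p = 0.0517, 0.192 and 0.168). LOC544041 is DNA-binding protein Pti4, an ethylene response factor that interacts with the Pto resistance kinase, at chr5:63247003-63247791. It had 4.78 to 10.7 CPM in the low libraries and 9.01 to 22.8 CPM in the rest, a log2 fold change of -0.64 (95% interval -0.94 to -0.34, edgeR adjusted p = 0.241), and was lower in 5 of 5 mixed groups. In the fit of the mixed groups alone, LOC544041 and LOC101247452 were the genes that passed, with edgeR adjusted p values of 0.0407 and 0.0177. Without the libraries apart on the first component, the others that passed were LOC101251507, LOC101260206, LOC101264133 and LOC101251018, beside both genes called with all libraries.

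The neighbours of LOC101258610 on chromosome 11 were measured next. Of 1048 tested genes on the chromosome 0 passed (edgeR, against 0.0123% over all genes), and 105 (10.02%) had an unadjusted p under 0.05, against 10.3% over all genes. DESeq2 called 0 of them. Within 1 Mb, 162 of 259 genes were tested, with a median log2 fold change of 0.03. Of these 0 passed in edgeR or DESeq2, and 7 higher and 7 lower genes (8.64%) had an unadjusted p under 0.05. Within 100 kb 18 of 30 genes were tested. An unadjusted p under 0.05 was reached by 1 higher and 2 lower genes (16.7%, against 10.3% over all genes). Without the libraries with conflicting identifiers 5 of 18 reached it, against 6.78% over all genes. Without those apart on the first component 5 of 19 did, against 13.9%. In both windows the median lay near that of all genes. Without each kind of doubted library, and without both, 0 genes of the chromosome passed in edgeR, and 69 of 1039, 152 of 1067 and 100 of 1105 had an unadjusted p under 0.05, in the order conflicting identifiers, apart on the first component, both.

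The 10 nearest tested genes had log2 fold changes from -0.49 to 0.23, and their 95% intervals ran from -0.81 to 0.45. The closest was LOC101259104, an uncharacterized gene 3.74 kb away, with 87.0 to 128 CPM in the low libraries and 66.3 to 113 CPM in the rest, a log2 fold change of 0.12 (95% interval -0.11 to 0.35). LOC101267574, a Werner Syndrome-like exonuclease gene 9.41 kb away, had 37.1 to 50.3 CPM against 33.4 to 47.1 CPM, a log2 fold change of 0.23 (95% interval 0.10 to 0.36, edgeR adjusted p = 0.347). LOC101258022, a cytosolic 5'-nucleotidase 3 gene 15.2 kb away, had 3.88 to 11.9 CPM against 6.83 to 15.7 CPM, a log2 fold change of -0.49 (95% interval -0.81 to -0.17, edgeR adjusted p = 0.395). Without the doubted libraries of either kind or both, the 10 genes lay between -0.43 and 0.22, and the smallest edgeR adjusted p was 0.155.

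**Figure D4:**
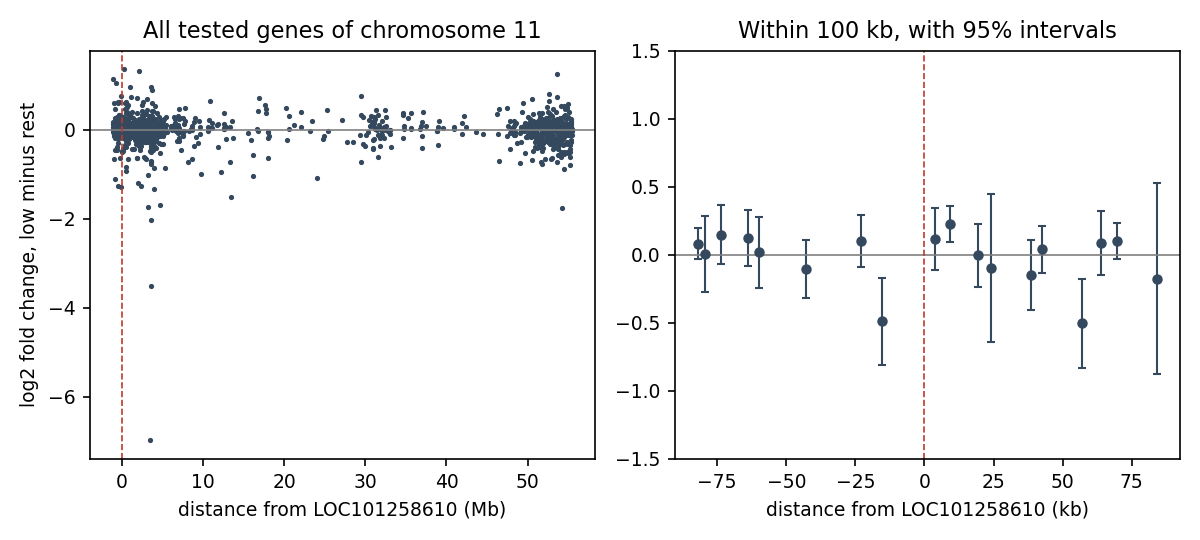
Log2 fold change of low libraries minus rest against distance from LOC101258610 (dashed line), for 1048 tested genes of chromosome 11 (left, distance in Mb) and for the 18 tested genes within 100 kb with 95% intervals (right, distance in kb). LOC101258610 itself is not drawn, and the 18 genes within 100 kb lie between -0.50 and 0.23.

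The 6 other genes described as dnaJ protein homologs, the closest by name since no protein comparison was made, did not pass. Per kilobase of exon, LOC101258610 had a median of 523 CPM per kb in the rest. LOC101248484 on chromosome 5, the other abundant member, had 787 CPM per kb in the rest and 779 in the low libraries. The other 4 members with 1 transcript had medians of 19.5 to 52.7 CPM per kb in the rest, so LOC101258610 was second of 6 there. In the low libraries its median was 0.423 CPM per kb, and it was last.

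LOC101248484 had 1181, 1307 and 1290 CPM in C_PC 1, C_PC 2 and C_PC 4. It had 1373 CPM in PI_PC 1, 1315 in PI_PC 2 and 1505 in PI_HC 4. In FI_HC 1, FI_HC 4 and FP_HC 3 it had 1377, 1587 and 1130 CPM. The rest had 856 to 2120 CPM with a median of 1327, so every low library lay inside the range of the rest. Its log2 fold change was 0.19 (95% interval -0.05 to 0.43, edgeR adjusted p = 0.577). For LOC101249325, LOC101252869 and LOC101262751 the log2 fold changes were 0.04, 0.09 and 0.01, with 95% intervals of -0.20 to 0.28, -0.13 to 0.31 and -0.16 to 0.18. LOC101252869 has 2 transcripts, and read pairs that meet exon records of both were not counted for it. Both LOC101259708 (log2 fold change -0.33, 95% interval -0.65 to -0.02, edgeR adjusted p = 0.474) and LOC101262478 (log2 fold change -0.16, 95% interval -0.31 to -0.01, edgeR adjusted p = 0.458) had an unadjusted p under 0.05. Without the doubted libraries of either kind or both, the 6 genes lay between -0.36 and 0.19, and the smallest edgeR adjusted p was 0.349.

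Summed over all 7 homologs, the low libraries had 1361 to 1837 CPM and the rest 1796 to 3499 CPM. Without LOC101258610 the sums were 1361 to 1833 and 1180 to 2420 CPM, with medians of 1597 and 1610. The same held for the 69 genes of the wider dnaJ list. Their sum was 3341 to 3918 CPM in the low libraries and 3932 to 5817 CPM in the rest, without overlap, which follows from the gene that chose the libraries. Without it the sums were 3341 to 3914 and 3316 to 4738 CPM, and the ranges overlapped.

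Across the wider chaperone network 0 of 209 tested genes in 9 lists passed in edgeR, and DESeq2 called 1, LOC101268020. An unadjusted p under 0.05 was reached by 28 of them (13.4%, against 10.3% over all genes), 3 higher and 25 lower. Over all genes 4.4% were higher and 5.9% lower. The small heat shock list, with 25 tested genes, held 9 of the lower and 1 of the higher genes. The median log2 fold change of the 209 genes was -0.04, against -0.000925 over all genes. In edgeR 0 of these genes passed without the libraries with conflicting identifiers or without those apart on the first component. An unadjusted p under 0.05 was then reached by 29 of 208 and 38 of 210, against 6.78% and 13.9% over all genes. In each of these fits 14 of them were small heat shock genes. Without both kinds of doubted library the median of all 9 lists together was -0.05. Among J-domain proteins other than LOC101258610, 53 of 68 were tested and 4 (7.55%) had an unadjusted p under 0.05, all lower, with a median of -0.04. The one with the smallest p was LOC101267064, dnaJ homolog subfamily B member 3, with a log2 fold change of -0.40 (95% interval -0.63 to -0.17, edgeR adjusted p = 0.347).

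HSP70 chaperones, the partners of J-domain proteins, were covered by a list of 18 tested genes with a median of -0.03. Of these 1 was higher and 3 lower at an unadjusted p of 0.05, 22.2% against 10.3% over all genes. The list pattern also takes in other 70 kDa proteins, and the higher gene, LOC101250913, is a replication protein A subunit. The HSP90 list, chaperones of signalling proteins, had 7 genes and a median of -0.02. Its smallest p was that of LOC101264183, heat shock protein 83, with a log2 fold change of -0.42 (95% interval -0.74 to -0.09, edgeR adjusted p = 0.4). The single tested HSP100 gene, LOC101254583 (ClpB1, of the disaggregase family), had a log2 fold change of -0.30 (95% interval -0.65 to 0.05, edgeR adjusted p = 0.535).

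Of the chaperonins, 25 were tested with a median of -0.09, and 4 (16%) were lower at an unadjusted p of 0.05. Over all genes 4.4% were higher and 5.9% lower by that measure, which is the background of this and the next lists. Cpn21, which encodes the chaperonin 21 precursor, had the smallest p, with a log2 fold change of -0.26 (95% interval -0.42 to -0.11, edgeR adjusted p = 0.347). Co-chaperones such as BAG proteins numbered 25 tested, with a median of -0.07 and 2 lower (8%). LOC101246665, BAG family molecular chaperone regulator 6, had 115 to 1027 CPM in the low libraries and 90.8 to 2235 CPM in the rest, a log2 fold change of -0.77 (95% interval -1.36 to -0.19, edgeR adjusted p = 0.4). Heat stress transcription factors, which switch on heat shock genes, numbered 19 tested, with a median of 0.03 and 1 higher (5.26%), LOC101266046 (A-2-like, log2 fold change 0.30, 95% interval 0.01 to 0.59, edgeR adjusted p = 0.477). The 39 peptidyl-prolyl isomerases had a median of -0.03 with 2 lower (5.13%). Among 5 tested farnesylation genes, whose products attach a lipid to some J-domain proteins, 0 had an unadjusted p under 0.05 and the median was 0.07.

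Small heat shock proteins, which bind unfolding proteins without ATP, stood furthest from 0 among the chaperone lists with more than 1 tested gene. Of 28 genes 25 were tested, and 21 had log2 fold changes below 0, while over all genes 49.9% were above 0. The median was -0.58 and the range -1.09 to 0.24. An unadjusted p under 0.05 was reached by 9 lower and 1 higher gene (40%, against 10.3% over all genes), while 0 passed the adjusted threshold in edgeR. The genes of a list were measured in the same libraries, so such counts are not counts of independent results. LOC101268020, a class I member, had the smallest p. It had 3.21 to 11.7 CPM (median 4.48) in the low libraries and 3.82 to 26.0 CPM (median 5.77) in the rest. Its log2 fold change was -0.60 (95% interval -0.89 to -0.31, edgeR adjusted p = 0.241, DESeq2 adjusted p = 0.0443). LOC101248279, a class III member, had a log2 fold change of -1.09 and an edgeR adjusted p of 0.31, and LOC101263239, a class I member, had 0.24 and 0.477.

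The lower values of the small heat shock list were closer to 0 without the group term, where the median was -0.25 and 1 gene was lower at an unadjusted p of 0.05. The summed level of the 28 genes was 1739 to 2829 CPM (median 2206) in the low libraries and 1493 to 3933 CPM (median 1925) in the rest, so the higher median lay with the low libraries before the groups were taken into account. The median log2 fold change was -0.47 to -0.67 in the 31 fits that left out 1 library, -0.57 without the libraries apart on the first component and -0.71 without those with conflicting identifiers. In the last pair of fits 13 and 14 of 25 genes were lower and 1 and 0 higher at an unadjusted p of 0.05. Over all genes the shares in either direction were 13.9% and 6.78% there. Without both kinds of doubted library the median was -0.53. The leaf mesophyll markers also had a median below 0 in the fit of all libraries, -0.38 over 33 tested genes, and their part in the result was not tested.

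**Figure D5:**
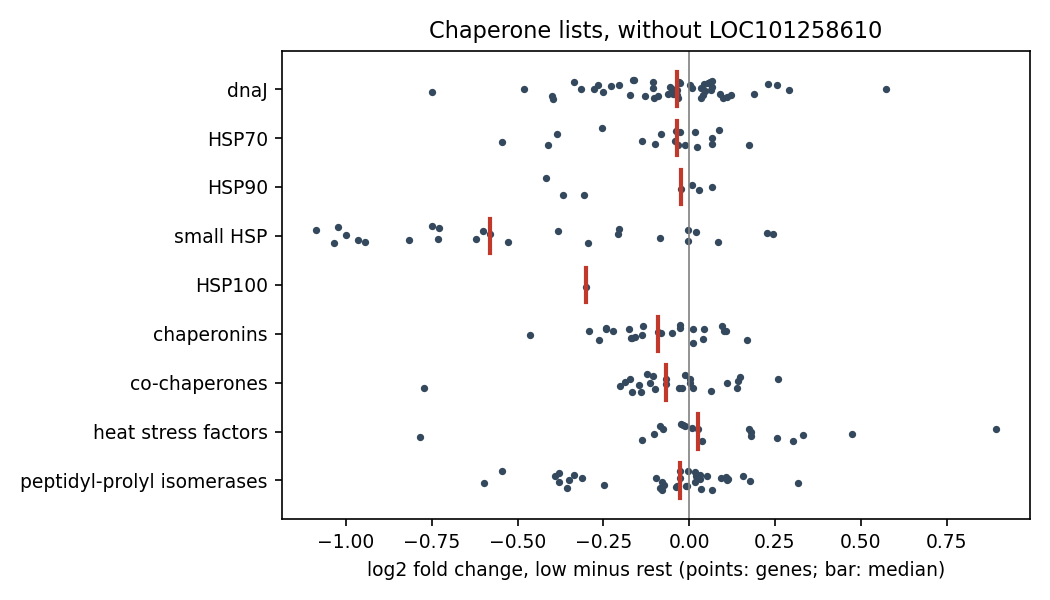
Log2 fold change of low libraries minus rest for each tested gene of the 9 chaperone lists (points), with the list median as a red bar and LOC101258610 left out. The medians lie between -0.09 and 0.03, apart from the small heat shock proteins at -0.58 and the single HSP100 gene at -0.30.

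For scale, the genes of chlorophyll a/b-binding proteins, the light-harvesting antenna of the leaf, numbered 26 and were all tested. Each had a log2 fold change below 0, from -1.42 to -0.09, with a median of -0.44. In edgeR 0 of them passed and 0 had an unadjusted p under 0.05. The count at an unadjusted p under 0.05 depended on single libraries. It was 18, all lower, without PI_PC 3, where the share over all genes was 18.6%, and 15, all lower, without the libraries apart on the first component, against 13.9% over all genes. It was 0 without those with conflicting identifiers, against 6.78% over all genes. None of the 26 passed the adjusted threshold in these fits. The median moved to -0.07 without the libraries with conflicting identifiers and to -0.25 without both kinds of doubted library. It lay between -0.55 and -0.16 when 1 library was left out. The 194 tested cytosolic ribosomal protein genes had a median of -0.00454. Of these 3 (1.55%) were lower and 0 higher at an unadjusted p of 0.05, against 5.9% and 4.4% over all genes.

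The comparison was then made within each experiment. Among PC libraries 0 genes passed in edgeR (0%), with 1705 (10.5%) at an unadjusted p under 0.05, and among HC libraries 0 passed (0%), with 603 (3.72%). The difference between the experiments passed in 0 genes in edgeR (0%), with 622 (3.84%) at an unadjusted p under 0.05, and DESeq2 called 1. LOC101247452 had a log2 fold change of -4.51 (standard error 0.922, edgeR adjusted p = 0.0809) in PC and -3.87 (standard error 0.834, edgeR adjusted p = 0.499) in HC. For LOC101245348 the values were 5.02 and 3.67 (edgeR adjusted p = 0.15 and 0.292). LOC101248484 had log2 fold changes of 0.39 in PC and 0.04 in HC, and the small heat shock list had medians of -0.56 and -0.54.

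LOC101249728, a second gene with an all-or-none pattern, fell on other libraries. This gene, annotated as protein JINGUBANG and located on chromosome 5, had 250 to 524 counts in 9 libraries and 0 to 3 in the other 22. All 9 low libraries had 0 counts of it, so 0 of its 9 high libraries were low in LOC101258610. Those 9 had 751 to 962 CPM of LOC101258610 (median 858), and the remaining 13 libraries of the rest had 406 to 1079 CPM (median 802). DESeq2 called LOC101249728 (DESeq2 adjusted p = 1.5e-14), while its edgeR adjusted p was 0.448, and no fold is given because the low libraries are all at 0. Every library of C_PC and PI_PC had 0 counts of it. In the mixed groups its counts came from PI_HC 1 (298), FI_HC 3 (350) and FP_HC 2 (368) alone. With the group taken into account, the comparison therefore rests on these libraries, in 3 of 5 mixed groups.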

How the data were processed

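The authors ran featureCounts 2.0.1 on exon records of the RefSeq annotation of SL3.0, counting pairs with the reverse-stranded setting, per the file headers. The submitters' processing notes also name FastQC, HISAT2 and DESeq2, without versions. The deposited values are raw counts. A pair that meets more than 1 record is counted for none, so 7267 genes with several transcripts hold 1.38% of the counts and are measured poorly. Exon records were summed to 30397 genes, and 10 records without a gene (0.0346% of counts) were left out. A floor of 3 counts equals 0.175 to 0.227 CPM, for counting error only, since no molecular identifiers were used.

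The test was edgeR 4.0.16 in R 4.3.3 (quasi-likelihood, TMM, filterByExpr, 16198 genes), with group and membership of the low libraries as terms. Standard errors are the log2 fold change over the square root of F. DESeq2 1.42.0 was an alternative. Correlations used log2(CPM + 0.5). Gene lists were patterns in gene descriptions. Named genes were LOC101258610, genes without overlap (0), called genes with a mean log2 CPM of at least 1 (0), the 10 nearest tested neighbours, dnaJ protein homologs, called chaperones (0), the 6 most correlated genes, and the gene with the smallest interaction p if called. Genes singled out outside this rule were chosen after their values were seen. They were called genes, some near the threshold or called in another fit, the smallest p of a list and LOC101249728. The libraries, lists and alternatives were chosen with earlier results of these data known. Within groups, 45 replicate pairs had a chi-square per gene of 9.98 to 227, far above sampling noise.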

Additional observations from a re-analysis of the deposited data

Results flagged for a closer look

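Within groups of 4 and within the low libraries, 31 gaps from the highest or lowest library to the next were measured, and 8 were wide for a group of that size. Chance gives about 1 in 20 for independent measures, and 8 is not read against that share. The gap in LOC101258610 comes from the value that chose the libraries, and the 4 gaps in LOC101245348 and LOC101247452 from genes named because they differ between low libraries and rest. The other 3 are in library totals, and their causes were not tested.

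C_PC 3 had 759 CPM of LOC101258610, while the other libraries of C_PC had 0.0596 to 1.19 CPM. This is the split that defines the low libraries. The same library had 0.439 CPM of LOC101247452, against 0 to 0.0744 CPM in the rest of C_PC.

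For LOC101245348, PI_PC 2 had 3.23 CPM and FP_HC 3 had 1.18 CPM, both low libraries that lay above their groups, whose next values were 0.0732 and 0.138 CPM. FI_PC 3 had 0.133 CPM in a group otherwise at 0, but this is 2 counts, under the floor of 3. FI_PC holds no low library.

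Library totals stood apart in C_PC 2 (14583317 counts, next 15023668) and in FI_PC 4 (15178270 counts, next 14811741). Among the low libraries PI_HC 4 had the lowest total, 13723119 counts, with 14508498 next.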

How the results depend on the processing

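The number of genes called between low libraries and rest, 2 with all libraries, was 20 with DESeq2, 0 with at least 10 counts required in every library (a filter that removes both called genes), 9 without the libraries apart on the first component, 1 without both kinds of doubted library, 9 without the group term and 5 with LOC101258610 as a continuous covariate. It ranged from 2 to 8 when each library was left out in turn: 4 without C_PC 4, PI_HC 4 or FI_HC 3, and 8 without PI_PC 3. Replicate numbers did not pair libraries: the mean correlation of deviations was -0.0174 for the same number and 0.00527 for others, and 4 of 31 libraries were closest to their own number. Adding a replicate block gave 2 called genes, and 0 for the difference between experiments. That difference gave 1 gene with DESeq2 and 0 under the edgeR alternatives and in every fit that left out 1 library. The difference in library totals ranged from -334993 to -152553 counts over such fits (exact permutation p from 0.0123 to 0.321), and it passed 0.05 only when FP_HC 3 or FP_HC 4 was left out. No direction reversed past its threshold. Genes with few counts limit the comparison: both called genes lie near the floor of 3 counts in many libraries, and the 9 low libraries share groups with only 10 of the rest.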
